A study of Mus musculus with 12 samples.

Results

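FOS, FOSB, FOSL1, FOSL2, JUN, JUNB, JUND, EGR1, EGR2 and EGR3 are the immediate early transcription factors described here, at the level of their RNA, in the mouse microglial line SIM-A9, labelled as strain C57BL/6. Their 10 genes were found by matching Ensembl gene identifiers to mouse symbols, and make up 10 of the 55416 genes in the count table. All 10 passed the filter on low counts, which left 26420 genes for testing. The 4 groups were MOK-KO cells given LPS (KO LPS), MOK-KO cells given medium alone (KO medium), wild-type cells given LPS (WT LPS) and wild-type cells given medium alone (WT medium), with 3 libraries in each. LPS, a component of the bacterial cell wall that is sensed by Toll-like receptor 4, was given at 1 µg/mL for 5 h, and medium alone for the same time. The MOK-KO cells are a single line, H14, in which the labels give the kinase MOK as knocked out, so the absence of MOK cannot be told apart from whatever else sets H14 apart from wild type. The labels call the libraries biological replicates without saying how the cultures were separated, so each p-value reflects only how far these samples spread, and that spread may be technical.

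FOS and JUN proteins are basic leucine zipper (bZIP) factors that pair to form AP-1, a dimer that binds the TGANTCA element in promoters and enhancers. JUN proteins can pair with each other or with a FOS protein. FOS proteins need a bZIP partner from outside their own family, such as a JUN protein. EGR proteins bind GC-rich sites through zinc fingers and are held in check by the corepressors NAB1 and NAB2. In most cells the genes are switched on within minutes of a stimulus, through the MAP kinases and the factors SRF, ELK and CREB, and many of the transcripts are short-lived. In macrophages and microglia, AP-1 also works beside PU.1 at the enhancers of inflammatory genes. The samples here were taken after hours of LPS, so they do not cover the first wave.

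Library totals ran from 39.7 M to 72.9 M counts. *Mok* itself had 1.70, 1.54 and 1.32 CPM (counts per M counts, with TMM-scaled totals) in KO LPS and 2.24, 2.58 and 1.93 in KO medium, against 2.83, 2.17 and 2.50 in WT LPS and 3.33, 3.52 and 3.21 in WT medium. *Mok* RNA was thus lower in KO cells in every library under either condition, but was still present. Its log2 fold change, KO against WT, was -0.72 ± 0.19 under LPS (adjusted p = 0.0177) and -0.58 ± 0.19 in medium (adjusted p = 0.0501). Which bases of *Mok* were altered is not given in the sources used here, so its RNA level does not check the knockout. Of 12 microglial markers, 8 in KO LPS, 11 in KO medium, 10 in WT LPS and 11 in WT medium averaged above 1 CPM, and their summed level was 1090 to 1520, 802 to 1160, 1510 to 1760 and 1150 to 1360 CPM in the same order. *Cd68*, *Csf1r*, *Ptprc*, *Spi1*, *Tyrobp*, *Trem2* and *Adgre1* averaged 35.4 CPM or more in each group. *Cx3cr1*, *Aif1*, *Tmem119* and *P2ry12* averaged 5.97 CPM or less in each group, with *P2ry12* at 0.169 CPM in KO LPS, 0.531 in KO medium, 0.348 in WT LPS and 0.755 in WT medium. *Itgam*, the gene of CD11b, differed between the lines, at 2.94 CPM in KO LPS and 3.67 in KO medium, against 24.2 in WT LPS and 20.9 in WT medium. The lists for astrocytes, neurons, oligodendrocytes, fibroblasts, endothelial cells, lymphocytes and neutrophils each had at most 2 of 4 markers above 1 CPM in any group. Among these, *Mbp* averaged 11.5 and 20.1 CPM in KO LPS and KO medium, against 5.16 and 8.59 in WT LPS and WT medium. *Cd3e* averaged 18 CPM in KO LPS, 2.44 in KO medium, 9.17 in WT LPS and 6.18 in WT medium. *Kdr* averaged 115, 121, 96.8 and 95.9 CPM in the same order. The part of these markers in the results was not tested. In RNA from whole cultures, fewer cells of a type and less RNA per cell cannot be told apart.

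Processed pseudogenes, which are intron-less gene copies, took 6.64 to 7.35% of counts in KO LPS, 12.8 to 14.3% in KO medium, 6.28 to 7.05% in WT LPS and 6.58 to 13.0% in WT medium. The share was thus high in all KO medium libraries and in replicate 2 of WT medium, and it differed between treatments in the KO line without overlap. In the KO line the share and LPS therefore cannot be told apart. KO calls lost below with the share as a covariate do not decide between them. KO LPS replicate 2 also stood apart, with 10.4% of counts in identifiers without a symbol, while this share was 4.88 to 8.18% elsewhere. It was the lowest of the KO LPS libraries for 8 of the 10 genes and the highest for 1, *Fosl1*. Values without 1 or another of these libraries are given below.

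The genes lie on 9 chromosomes: *Jun* on 4, *Fosl2* on 5, *Fosb* on 7, *Junb* and *Jund* on 8, *Egr2* on 10, *Fos* on 12, *Egr3* on 14, *Egr1* on 18 and *Fosl1* on 19. Several share exon bases with a gene on the opposite strand. In the GENCODE annotation, 57.2% of the exon bases of *Fosl1* overlap *Ccdc85b*, 52.6% of those of *Jund* overlap *Gm11175*, 7.52% of those of *Junb* overlap *Prdx2* and 7.28% of those of *Jun* overlap *Junos*. The libraries were stranded, but the strand setting of the counting is not given in the sources used here, and without strand the reads of such a pair cannot be told apart. *Gm11175* had 0 counts over the 12 libraries. *Ccdc85b* was lower after LPS, with a log2 fold change (± SE) of -0.71 ± 0.15 in KO and -1.08 ± 0.15 in WT, the opposite direction to *Fosl1*. *Prdx2* had log2 fold changes between -0.08 and 0.09 in the same comparisons and between the lines.

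Promoters from RefSeq on mouse build GRCm38.p6 were taken for 7 of the 10 genes, and a gene left out may still have one. Of the 7, 5 are shown, those whose RefSeq start lay within 50 bases of an annotated GENCODE start. *Egr2* has several listed starts, and of the 3 that coincide with a GENCODE start the most upstream is printed. The responses of these 5 genes to LPS, given below, ranged from a fall (*Fos*) to strong gains (*Junb* and *Egr2*). Any link between the sequences and the responses was not tested. Each run is the 250 bases upstream of the start site, 5′ to 3′ on the gene's own strand, with capitals for matches to the JUN/ATF site of the *Jun* promoter, the CArG box bound by SRF, the EGR site and the kappaB site bound by NF-kappaB. The windows are *Fos* at chr12:85473640-85473889 (plus strand), *Fosb* at chr7:19310046-19310295 (minus strand), *Jun* at chr4:95052223-95052472 (minus strand), *Junb* at chr8:84978749-84978998 (minus strand) and *Egr2* at chr10:67537619-67537868 (plus strand).
Fos: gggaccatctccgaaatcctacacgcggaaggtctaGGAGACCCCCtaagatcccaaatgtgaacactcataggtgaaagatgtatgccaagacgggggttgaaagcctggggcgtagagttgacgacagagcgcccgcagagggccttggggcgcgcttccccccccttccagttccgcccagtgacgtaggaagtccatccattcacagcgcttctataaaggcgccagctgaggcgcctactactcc
Fosb: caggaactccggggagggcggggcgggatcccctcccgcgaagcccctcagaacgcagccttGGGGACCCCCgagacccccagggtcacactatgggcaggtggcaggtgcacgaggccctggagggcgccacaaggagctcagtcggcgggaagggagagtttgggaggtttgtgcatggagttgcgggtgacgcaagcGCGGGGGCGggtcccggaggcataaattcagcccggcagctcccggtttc
Jun: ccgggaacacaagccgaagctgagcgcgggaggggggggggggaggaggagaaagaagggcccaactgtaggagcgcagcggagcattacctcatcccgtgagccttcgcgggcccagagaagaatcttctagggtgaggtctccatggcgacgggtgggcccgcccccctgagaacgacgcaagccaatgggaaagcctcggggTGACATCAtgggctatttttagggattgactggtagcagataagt
Junb: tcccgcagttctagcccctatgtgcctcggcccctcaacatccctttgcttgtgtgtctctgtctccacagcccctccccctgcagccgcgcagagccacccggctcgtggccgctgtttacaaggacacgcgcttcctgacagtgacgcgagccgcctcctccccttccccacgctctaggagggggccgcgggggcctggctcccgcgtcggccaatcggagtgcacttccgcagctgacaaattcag
Egr2: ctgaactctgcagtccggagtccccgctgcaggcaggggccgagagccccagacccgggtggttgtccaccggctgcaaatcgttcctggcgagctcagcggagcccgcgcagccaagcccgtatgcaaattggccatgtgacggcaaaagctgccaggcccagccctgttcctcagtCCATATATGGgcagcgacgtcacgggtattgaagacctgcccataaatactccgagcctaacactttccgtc

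The motifs searched, on both strands, were the TPA response element TGANTCA, the cAMP response element TGACGTCA, the JUN/ATF site TGACATCA, the EGR site GCGNGGGCG, the Sp1 box GGGCGG, the CCAAT box, the TATA box TATAAA, and the CArG box and kappaB site by their usual consensus. TGACATCA was present in the *Jun* promoter, 45 bases before the start (position -45), and in 3.02% of the 27025 mouse promoters of the same length. The *Egr2* promoter held the CArG box CCATATATGG at position -72, a motif found in 1.40% of promoters. The *Fosb* promoter held the EGR site GCGGGGGCG at -50 overlapping an Sp1 box, and a kappaB match at -188; the EGR site was found in 4.65% and the kappaB site in 7.01% of promoters. The *Fos* promoter held a kappaB match at -214 and a TATA box at -33, found in 13.0% of promoters. The *Junb* window held only a CCAAT box, at -36, which 34.5% of promoters have. TGANTCA (6.87% of promoters) and TGACGTCA (1.62%) were in none of the 5 windows, which says only that these letters are absent there.

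The JUN family was far more abundant than the FOS and EGR families. Scaled by length, the summed level of the JUN family was 217 ± 42.5 CPM per kb in KO LPS and 47.0 ± 2.09 in KO medium, against 299 ± 25.9 in WT LPS and 69.2 ± 5.09 in WT medium (SD, n = 3). The FOS family summed to 7.76 ± 0.369 and 4.52 ± 0.356 CPM per kb in KO LPS and KO medium, against 18.2 ± 0.494 and 8.76 ± 0.0999 in WT LPS and WT medium. The EGR family summed to 1.76 ± 0.428 and 1.45 ± 0.0851 CPM per kb in KO LPS and KO medium, against 4.26 ± 0.339 and 1.54 ± 0.104 in WT LPS and WT medium. In every group *Junb*, *Jund*, *Jun* and *Fosl2* held the top 4 places by CPM per kb. *Junb* led in KO LPS, KO medium and WT LPS and *Jund* in WT medium, but the libraries of the leading pair overlapped in KO LPS and WT medium. The levels of *Jund* and *Fosl1*, which overlap opposite-strand genes, may depend on the strand setting of the counting. So may their places here and the shares below.

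The lower places in that order were less distinct. In WT LPS the libraries of no neighbouring pair of genes overlapped, down to *Fosb* at 0.207 and *Egr1* at 0.0892 CPM per kb. In KO LPS *Fosl1* overlapped *Egr3*, and *Egr2*, *Fos* and *Fosb* overlapped one after the other, at 0.355, 0.330 and 0.299 CPM per kb. In KO medium neighbours overlapped from *Egr3* through *Fos* and *Fosl1* to *Egr1*, and *Fosb* overlapped *Egr2*. In WT medium *Fosl1* overlapped *Fos*, and *Egr1* overlapped *Fosb*.

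Each family's make-up also varied between groups. *Fosl2* held 73.2% of the FOS family's CPM per kb in KO LPS and 63.1% in KO medium, against 52.5% in WT LPS and 54.3% in WT medium (means of 3 libraries). *Fosl1* held 18.6% in KO LPS, with a range of 11.7 to 30.9%, and 15.2% in KO medium, against 40.7% in WT LPS and 22.4% in WT medium. *Fos*, the founding member, held 4.27% in KO LPS and 17.4% in KO medium, against 5.75% in WT LPS and 21.0% in WT medium. In the EGR family, *Egr2* held 20.4% in KO LPS and 10.7% in KO medium, against 62.8% in WT LPS and 27.3% in WT medium. *Junb* held 48.8% of the JUN family in KO LPS and 42.1% in KO medium, against 64.9% in WT LPS and 37.4% in WT medium. These shares are descriptions and were not tested.

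**Figure D1:**
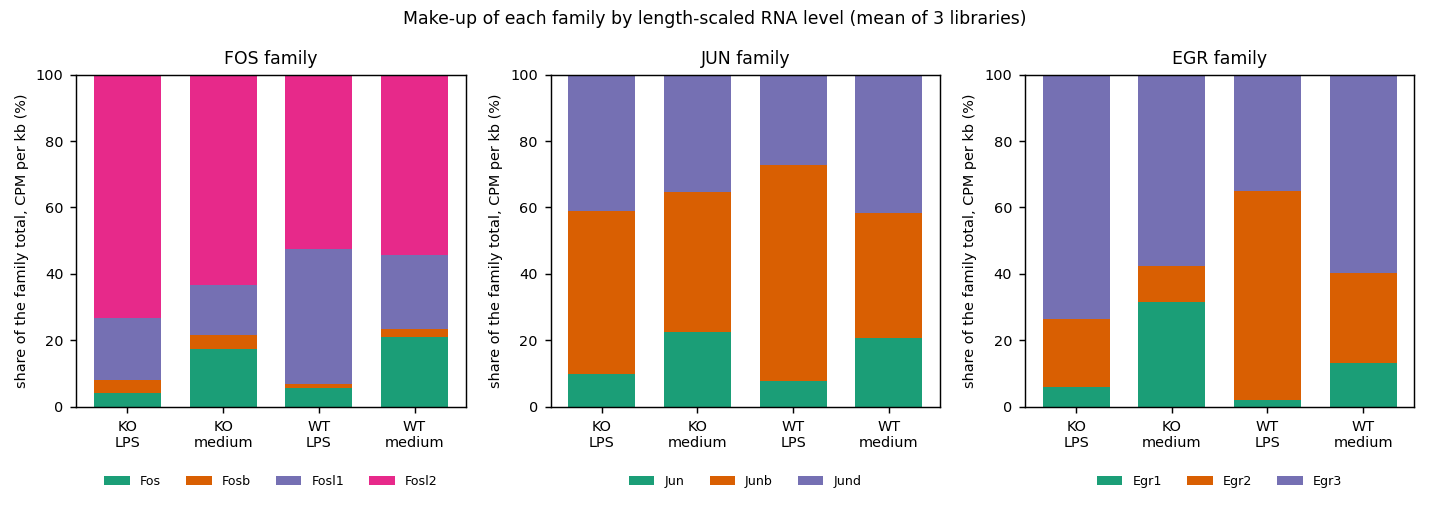
Share of each family's summed level (CPM per kb, %, mean of 3 libraries) held by each gene, with 1 panel per family and 1 bar per group. In WT LPS *Egr2* takes 62.8% of the EGR bar, against 20.4% in KO LPS, and *Fosl1* 40.7% of the FOS bar, against 18.6% in KO LPS.

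After LPS most of the genes were higher in both lines, but the founding members *Fos* and *Egr1* were not. In KO cells LPS raised 7 of the 10 genes (*Fosb*, *Fosl1*, *Fosl2*, *Jun*, *Junb*, *Jund* and *Egr2*) and lowered *Fos* and *Egr1*, at a Benjamini-Hochberg adjusted p under 0.05 in edgeR's quasi-likelihood test. In that comparison 52.0% of all tested genes were called in either direction, 25.3% higher and 26.8% lower. In WT cells LPS raised 7 (*Fosl1*, *Fosl2*, *Jun*, *Junb*, *Jund*, *Egr2* and *Egr3*) and lowered *Fos*, against 32.6% of all genes called, 16.3% in each direction. The libraries of LPS and medium did not overlap for 9 of 10 genes in KO, against 61.4% of all genes, and for 8 of 10 in WT, against 43.0%. The median log2 fold change of the 10 genes was 1.01 in KO and 0.85 in WT, beside -0.03 and -0.07 over all genes. Scaled by library size alone, the median of all genes moved by -0.26 in KO and -0.34 in WT, and calls over all genes then split into 4182 higher and 10422 lower in KO, instead of 6679 and 7070. In WT that scaling gave 2104 higher and 9985 lower, instead of 4303 and 4297.

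*Junb*, a JUN protein that in many settings restrains growth and that partners FOS and BATF proteins, had the highest mean CPM per kb of the 10 genes under LPS in both lines. It had 288, 187 and 256 CPM in KO LPS and 42.5, 51.1 and 43.4 in KO medium, against 505, 393 and 446 in WT LPS and 65.1, 60.4 and 53.1 in WT medium. Each LPS library was several times higher than each medium library of its line, with no overlap. LPS raised *Junb* by 2.42 ± 0.16 on the log2 scale in KO (adjusted p = 9.19e-07) and by 2.91 ± 0.16 in WT (adjusted p = 2.39e-07), which is 5.34-fold and 7.52-fold.

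*Jund* encodes the JUN protein that many resting cells already contain. It had 160, 115 and 172 CPM in KO LPS and 26.3, 30.4 and 26.6 in KO medium, against 133, 135 and 139 in WT LPS and 50.9, 45.5 and 48.3 in WT medium. The medium libraries of KO lay below those of WT, while the LPS libraries of the lines overlapped. LPS raised *Jund* by 2.42 ± 0.13 on the log2 scale in KO (5.36-fold, adjusted p = 1.86e-07) and by 1.49 ± 0.13 in WT (2.81-fold, adjusted p = 6.13e-06).

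*Jun*, whose protein c-JUN is activated by the kinase JNK and acts on its own promoter, changed less. It had 75.6, 57.5 and 73.3 CPM in KO LPS and 39.8, 28.1 and 32.7 in KO medium, against 77.4, 64.7 and 79.6 in WT LPS and 52.0, 41.4 and 44.9 in WT medium. LPS libraries lay above medium libraries in both lines. The log2 fold change was 1.03 ± 0.15 in KO (adjusted p = 0.000310) and 0.68 ± 0.15 in WT (adjusted p = 0.00499). With the processed pseudogene share as a covariate the KO value was 0.96 (adjusted p = 0.0564).

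*Fosl2*, whose protein FRA-2 is a FOS protein without the strong activation domain of FOS, had the highest mean CPM per kb of the FOS genes in each of the 4 groups. It had 60.1, 49.4 and 54.9 CPM in KO LPS and 27.4, 27.8 and 27.3 in KO medium, against 99.6, 92.0 and 85.5 in WT LPS and 48.8, 43.2 and 46.3 in WT medium. LPS libraries lay above medium libraries in both lines, and KO libraries lay below WT libraries under either condition. On the log2 scale LPS raised *Fosl2* by 0.99 ± 0.09 in KO (1.99-fold, adjusted p = 6.44e-06) and by 1.00 ± 0.09 in WT (2.00-fold, adjusted p = 5.57e-06).

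*Fosl1*, whose protein FRA-1 is linked to cell migration and protease genes, was low in KO cells. It had 1.83, 5.13 and 2.00 CPM in KO LPS and 1.01, 1.77 and 1.46 in KO medium, against 13.8, 14 and 17.3 in WT LPS and 3.06, 4.17 and 4.74 in WT medium. In KO LPS, replicate 2 stood well above the others, and all WT LPS libraries were higher still. The log2 fold change with LPS was 1.09 ± 0.37 in KO (adjusted p = 0.0307) and 1.91 ± 0.36 in WT (3.77-fold, adjusted p = 0.00238). The KO value rests on that library: without KO LPS replicate 2 it was 0.45 (adjusted p = 0.172), and the call was also lost without KO medium replicate 1 (0.85, adjusted p = 0.121) or 3 (1.08, adjusted p = 0.0835). In all, 9 of 22 alternatives lost it, among them library size alone (0.83, adjusted p = 0.0881) and the processed pseudogene covariate (0.82, adjusted p = 0.622).

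*Fosb* is best known from neurons, where a truncated form of its protein is long-lived. It had 1.80, 1.40 and 2.40 CPM in KO LPS and 1.24, 1.24 and 1.07 in KO medium, against 1.45, 1.25 and 1.17 in WT LPS and 1.24, 1.32 and 1.20 in WT medium. KO LPS replicates 1 and 3 stood above all other libraries, and KO LPS replicate 2 lay within the range of WT LPS. The log2 fold change with LPS was 0.65 ± 0.22 in KO (adjusted p = 0.0274) and 0.04 ± 0.22 in WT (95% interval -0.44 to 0.52, adjusted p = 0.898). The KO call was lost in 5 of the 12 fits that left out a library: without KO LPS replicate 1 (0.68, adjusted p = 0.0535) or 3 (0.44, adjusted p = 0.125), and without KO medium replicate 1 (0.64, adjusted p = 0.0644), 2 (0.63, adjusted p = 0.0724) or 3 (0.55, adjusted p = 0.114). It was also lost with library size alone (0.39, adjusted p = 0.148), with no filter (0.53, adjusted p = 0.131), with protein-coding genes only (0.50, adjusted p = 0.066) and with the processed pseudogene covariate (0.83, adjusted p = 0.304).

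*Fos*, whose protein c-FOS is the classic rapid and short-lived AP-1 partner, was scarce and lower after LPS. It had 0.674, 0.735 and 0.919 CPM in KO LPS and 1.46, 2.17 and 1.97 in KO medium, against 2.88, 2.39 and 2.11 in WT LPS and 4.57, 4.71 and 3.69 in WT medium, from 31 to 237 counts a library. The 4 groups followed each other with overlap only between KO medium and WT LPS. LPS lowered *Fos*, with a log2 fold change of -1.26 ± 0.23 in KO (adjusted p = 0.00142) and -0.81 ± 0.21 in WT (adjusted p = 0.0148). Leaving out WT LPS replicate 3 ended the WT call (-0.71, adjusted p = 0.0671), and with the processed pseudogene share as a covariate both calls were lost, at -0.86 in KO (adjusted p = 0.236) and -0.62 in WT (adjusted p = 0.0786).

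*Egr2*, which in macrophages is tied to their differentiation and alternative activation, was the EGR gene with the largest called gain under LPS. It had 1.41, 0.938 and 1.27 CPM in KO LPS and 0.680, 0.265 and 0.669 in KO medium, against 8.70, 9.43 and 9.07 in WT LPS and 1.58, 1.30 and 1.37 in WT medium. The WT LPS libraries stood far above the other 9, and KO LPS overlapped WT medium. The log2 fold change with LPS was 1.15 ± 0.30 in KO (2.22-fold, adjusted p = 0.00846) and 2.68 ± 0.28 in WT (6.39-fold, adjusted p = 3.36e-05). The KO call was lost with the processed pseudogene covariate (1.09, adjusted p = 0.267).

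*Egr3*, a relative of EGR2 with a known role in muscle spindles and lymphocytes, had 5.98, 4.03 and 7.23 CPM in KO LPS and 4.06, 2.92 and 4.14 in KO medium, against 5.48, 6.18 and 8.18 in WT LPS and 3.54, 3.68 and 4.92 in WT medium. LPS and medium libraries overlapped in KO and not in WT. The log2 fold change was 0.63 ± 0.25 in KO (adjusted p = 0.0530) and 0.71 ± 0.25 in WT (adjusted p = 0.0486). The values of both lines lay close to the threshold. The KO value was called without KO LPS replicate 2 (0.84, adjusted p = 0.0185), with RLE scaling (0.68, adjusted p = 0.0448), with DESeq2 (0.68, adjusted p = 0.029) and with the replicate numbers as a block (0.61, adjusted p = 0.0156). The WT call was lost in 16 of 23 alternatives, 9 of them among the 12 fits that left out a library (adjusted p from 0.0281 to 0.183 over the 12).

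*Egr1*, the growth factor response gene whose protein also drives inflammatory genes in macrophages, had the lowest level per kb of the 10 genes in KO LPS and WT LPS. It had 0.522, 0.423 and 0.424 CPM in KO LPS and 1.63, 2.76 and 1.70 in KO medium, against 0.501, 0.399 and 0.301 in WT LPS and 0.674, 1.64 and 0.405 in WT medium, from 16 to 125 counts a library. All KO medium libraries and replicate 2 of WT medium were high, and the other 8 libraries were low. LPS lowered *Egr1* in KO, with a log2 fold change of -2.15 ± 0.45 (adjusted p = 0.00322), while the WT value was -1.16 ± 0.46 (adjusted p = 0.0739). That WT value was -0.47 (adjusted p = 0.373) without WT medium replicate 2, and it was called without WT medium replicate 3 (-1.57, adjusted p = 0.00892), with library size alone (-1.51, adjusted p = 0.0236) and with protein-coding genes only (-1.26, adjusted p = 0.0444). The 4 high libraries are the 4 with the most counts in processed pseudogenes, at 12.8, 13.7 and 14.3% in KO medium and 13.0% in WT medium replicate 2, and with that share as a covariate the KO value was -0.20 (adjusted p = 0.899) and the WT value -0.04 (adjusted p = 0.953).

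**Figure D2:**
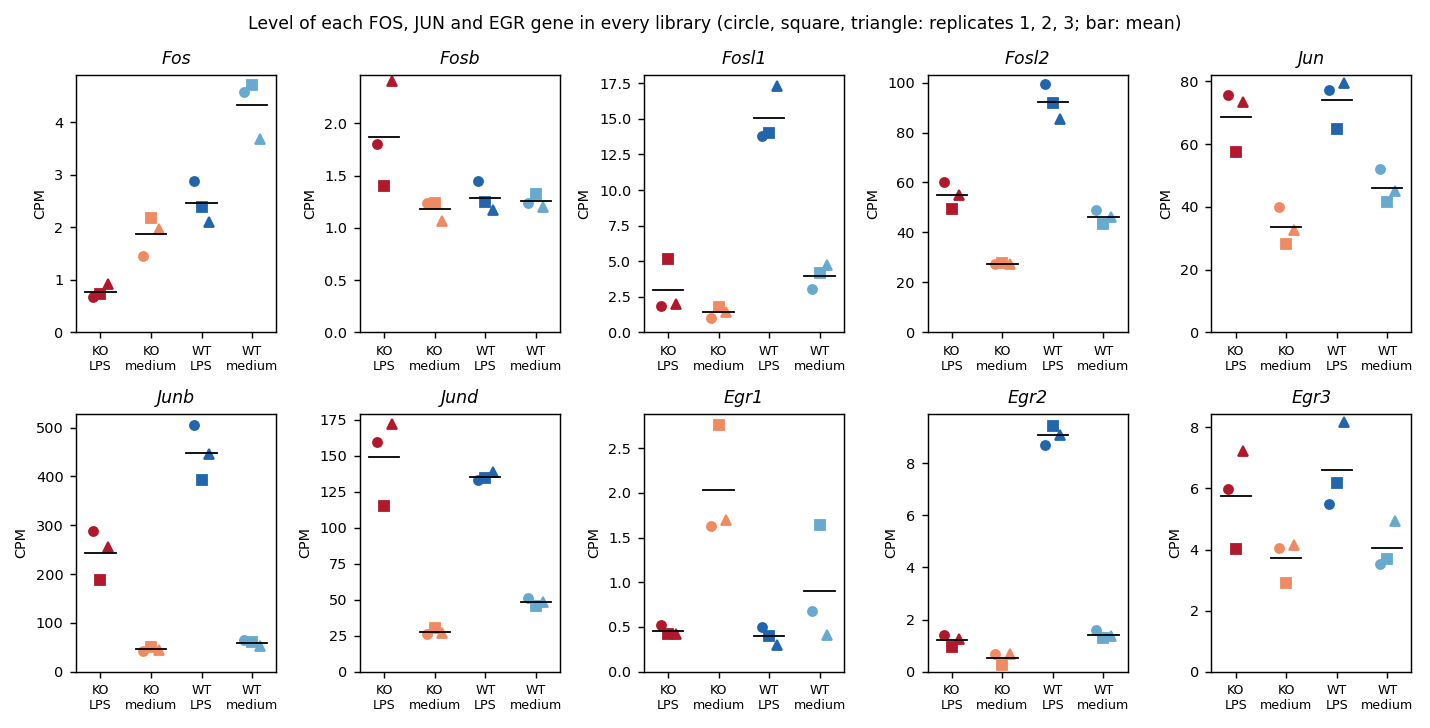
Level of each gene (CPM, linear axis from 0) in all 12 libraries, with groups from left to right KO LPS, KO medium, WT LPS and WT medium, replicates 1, 2 and 3 as circle, square and triangle, and the group mean as a bar. *Egr2* and *Fosl1* stand high in WT LPS alone (8.70 to 9.43 and 13.8 to 17.3 CPM), *Jund* overlaps between the lines under LPS (115 to 172 CPM in KO and 133 to 139 in WT), and *Egr1* is high in KO medium and WT medium replicate 2.

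**Figure D3:**
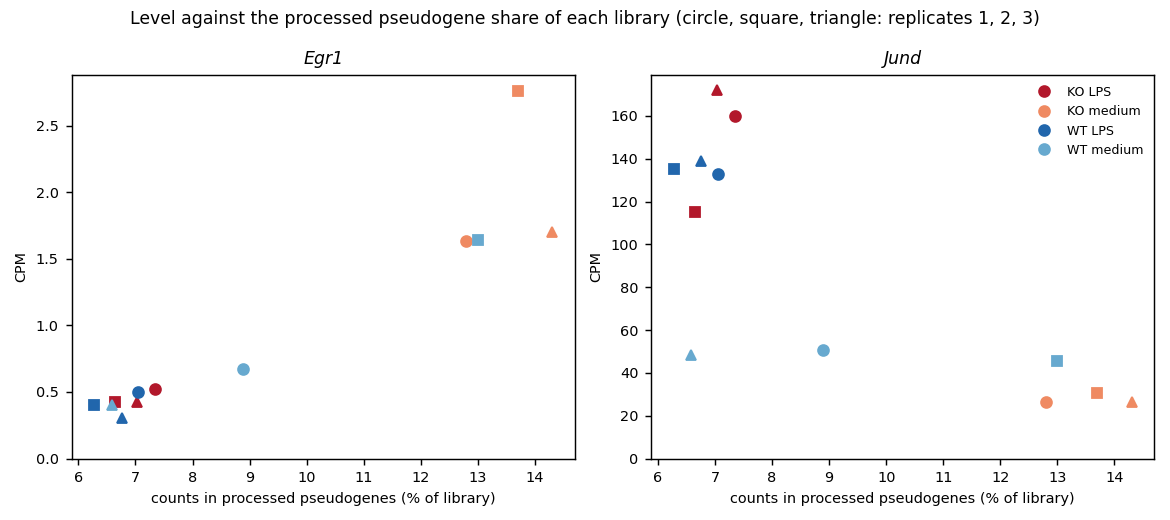
Level of *Egr1* and *Jund* (CPM) against the percent of counts in processed pseudogenes, 1 point per library. The 4 libraries with 12.8 to 14.3% hold 1.63 to 2.76 CPM of *Egr1* and the other 8 hold 0.301 to 0.674 CPM, while WT medium replicate 3, at 6.58%, has *Jund* at 48.3 CPM like the other WT medium libraries.

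Between the lines, none of the 10 genes was called higher in KO cells, and 5 were called lower under either condition. Under LPS *Fos*, *Fosl1*, *Fosl2*, *Junb* and *Egr2* were lower in KO, while 20.6% of all tested genes were called, 7.87% higher and 12.7% lower. In medium *Fos*, *Fosl1*, *Fosl2*, *Jund* and *Egr2* were lower in KO, while 19.2% of all genes were called, 6.88% higher and 12.3% lower. The libraries of KO and WT did not overlap for 5 of 10 genes under LPS, against 38.9% of all genes, and for 7 of 10 in medium, against 35.6%. The median log2 fold change of the 10 genes was -0.48 under LPS and -0.60 in medium, beside 0.07 and 0.04 over all genes. Under LPS, scaling by library size alone turned the calls over all genes into 2922 higher and 2936 lower, instead of 2080 and 3351, and the 5 lower calls among the 10 genes held in each of the 12 fits without a library.

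*Egr2* had the largest of these differences, at -2.91 ± 0.28 on the log2 scale under LPS, which is 7.51-fold lower in KO (adjusted p = 2.88e-05), and -1.38 ± 0.30 in medium (2.61-fold lower, adjusted p = 0.00735). The call in medium was lost when only the medium libraries were fitted (-1.41, adjusted p = 0.0606). *Fosl1* was lower in KO, at -2.33 ± 0.36 under LPS (5.02-fold, adjusted p = 0.000944) and -1.50 ± 0.37 in medium (2.83-fold, adjusted p = 0.0168). Without KO LPS replicate 2, its high library, the value of *Fosl1* under LPS was -2.98. In medium the *Fosl1* call was lost without KO medium replicate 1 (-1.33, adjusted p = 0.0640) or 3 (-1.56, adjusted p = 0.0529), without WT medium replicate 3 (-1.36, adjusted p = 0.0516) and with the processed pseudogene covariate (-1.34, adjusted p = 0.139).

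*Fos* was lower in KO, at -1.66 ± 0.22 under LPS (3.17-fold, adjusted p = 0.000288) and -1.21 ± 0.22 in medium (2.32-fold, adjusted p = 0.00239). *Fosl2* was lower in KO under both conditions, at -0.75 ± 0.09 under LPS (adjusted p = 7.17e-05) and -0.74 ± 0.09 in medium (adjusted p = 0.000116). *Fosb* was not called under either condition, at 0.53 ± 0.22 under LPS (adjusted p = 0.119) and -0.08 ± 0.22 in medium (adjusted p = 0.811).

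Among the JUN genes, *Junb* was lower in KO under LPS (-0.88 ± 0.15, 1.84-fold, adjusted p = 0.00176), and in medium its value was -0.38 ± 0.16 (adjusted p = 0.107) although the libraries of the lines did not overlap. *Jund* was lower in KO in medium (-0.79 ± 0.13, 1.73-fold, adjusted p = 0.00123), and under LPS its value was 0.14 ± 0.13, with a 95% interval of -0.14 to 0.41 (adjusted p = 0.559). *Jun* had -0.10 ± 0.15 under LPS (95% interval -0.42 to 0.22, adjusted p = 0.735) and -0.46 ± 0.15 in medium (adjusted p = 0.0507), where no libraries overlapped and 10 of 22 alternatives passed the threshold, DESeq2 among them (adjusted p = 0.0308).

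Leaving out KO LPS replicate 2 took 4 of the values between the lines that had missed the threshold past it. Without it, *Fosb* under LPS was 0.70 (adjusted p = 0.0440) and *Jund* under LPS was 0.29 (adjusted p = 0.0311), both higher in KO. In medium *Junb* was -0.39 (adjusted p = 0.0407) and *Jun* -0.46 (adjusted p = 0.0343), both lower. The medium groups do not hold that library, and these 2 values hardly moved from -0.38 and -0.46 in the main fit. *Egr3* had -0.21 ± 0.25 under LPS (adjusted p = 0.678) and -0.13 ± 0.25 in medium (adjusted p = 0.729). *Egr1* had 0.19 ± 0.48 under LPS (95% interval -0.87 to 1.25, adjusted p = 0.868), and in medium 1.18 ± 0.43 (adjusted p = 0.0773), where leaving out WT medium replicate 2 gave 1.91 (adjusted p = 0.00103). With the processed pseudogene share as a covariate, *Egr1* in medium was at 0.23 (adjusted p = 0.762).

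The difference of the LPS effects, KO minus WT, was called for *Jund* alone among the 10 genes, while 1.60% of all tested genes were called, 0.693% higher and 0.908% lower. That share depends on WT medium replicate 2: without it 1606 genes were called higher and 2391 lower, instead of 183 and 240. *Jund* gained more with LPS in KO, by 0.93 ± 0.18 on the log2 scale (95% interval 0.54 to 1.33, adjusted p = 0.0279). The lines differed in *Jund* in medium, where KO was lower, while under LPS their libraries overlapped. The size of the difference in *Jund* was 0.81 to 1.09 over the 12 fits without a library, but the call was lost in 8 of them: without KO LPS replicate 1 (adjusted p = 0.0759) or 3 (adjusted p = 0.0713), KO medium replicate 1 (adjusted p = 0.0613) or 3 (adjusted p = 0.0725), WT LPS replicate 1 (adjusted p = 0.0899), 2 (adjusted p = 0.0816) or 3 (adjusted p = 0.0641), and WT medium replicate 1 (adjusted p = 0.0629).

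For *Egr2* the difference of LPS effects was -1.53 ± 0.41 (95% interval -2.42 to -0.63), which missed the threshold (adjusted p = 0.11). DESeq2 called it at -1.52 (adjusted p = 0.00249), as did the fits on protein-coding genes only (-1.59, adjusted p = 0.0336), without KO medium replicate 2 (-1.84, adjusted p = 0.0120) and without WT medium replicate 2 (-1.46, adjusted p = 0.0408). *Fosl1* had -0.83 ± 0.52 (adjusted p = 0.512), *Junb* -0.49 ± 0.22 (adjusted p = 0.352) and *Fosl2* -0.01 ± 0.12, with an interval of -0.27 to 0.26 (adjusted p = 0.983). *Egr1* had -0.99 ± 0.65 (adjusted p = 0.531), and -1.72 (adjusted p = 0.0294) without WT medium replicate 2. The differences of *Fos*, *Fosb*, *Jun* and *Egr3* ran from -0.45 to 0.61, with adjusted p from 0.418 to 0.939.

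**Figure D4:**
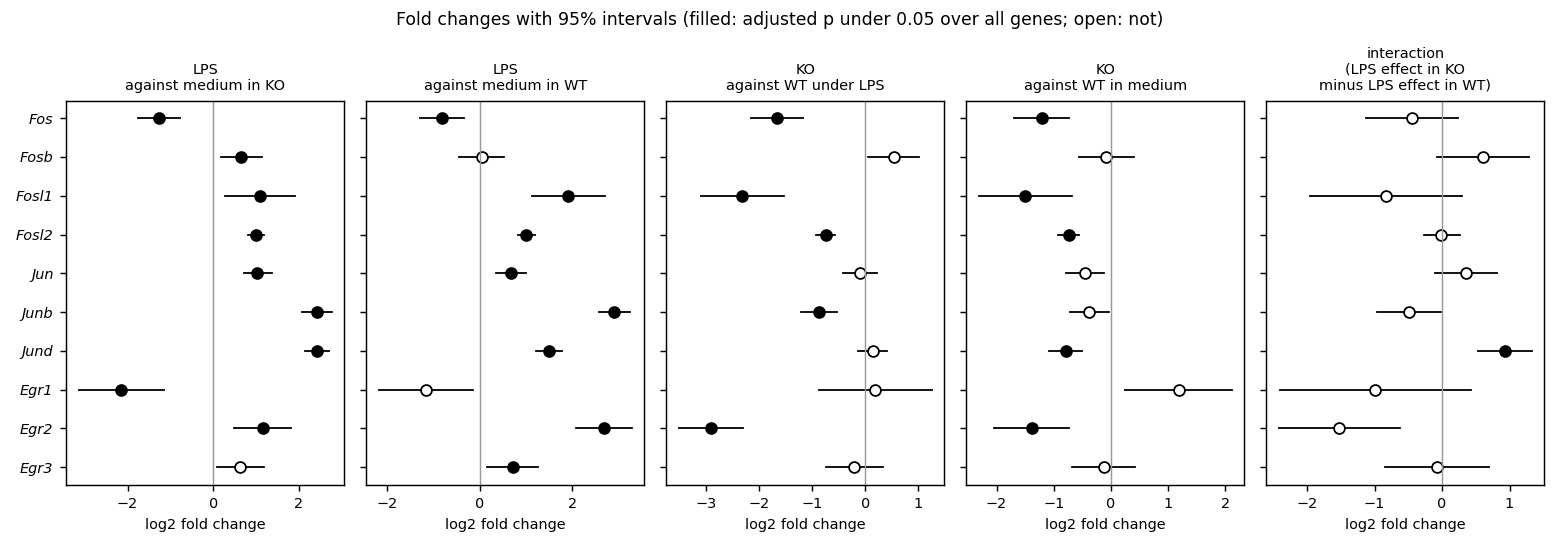
Log2 fold change with its 95% interval for each gene in the 5 comparisons (panels), filled where the adjusted p over all 26420 genes is under 0.05. LPS effects lie to the right of 0 except for *Fos* and *Egr1*, and the filled differences between lines all lie to the left of 0, down to -2.91 for *Egr2* under LPS.

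The bZIP partners of FOS and JUN mostly rose with LPS, and between the lines they went both ways. Of 12 bZIP partner genes, LPS raised 7 and lowered 1 in KO and raised 8 and lowered 2 in WT (medians 0.86 and 0.96, beside -0.03 and -0.07 over all genes). Over all tested genes 25.3% were called higher and 26.8% lower in KO, and 16.3% in each direction in WT. *Atf3*, a stress-induced bZIP repressor of inflammatory genes, rose by 3.40 ± 0.23 in KO (10.6-fold, adjusted p = 2.41e-06) and 3.11 ± 0.23 in WT (8.60-fold, adjusted p = 3.92e-06). *Maff*, a small MAF protein without an activation domain, rose by 3.40 ± 0.14 in KO and 2.41 ± 0.13 in WT, and its gain was larger in KO by 0.99 ± 0.19 (adjusted p = 0.0279), a call lost in 6 of the 12 fits without a library (adjusted p up to 0.0841).

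Between the lines, 2 bZIP partners were higher and 4 lower in KO under LPS, and none was higher and 4 were lower in medium (medians -0.15 and -0.20), against 7.87% of all genes higher and 12.7% lower under LPS and 6.88% and 12.3% in medium. *Maf* was lower in KO, at -2.41 ± 0.57 under LPS (adjusted p = 0.0133) and -3.29 ± 0.58 in medium (adjusted p = 0.00339). *Maf* varied widely in WT, at 5.10 ± 3.21 CPM under LPS and 6.83 ± 4.66 in medium, and its call under LPS was lost without KO LPS replicate 1 (-2.42, adjusted p = 0.0513) or 2 (-2.37, adjusted p = 0.0525) or WT LPS replicate 1 (-1.78, adjusted p = 0.0571). *Mafk* under LPS was -0.45 ± 0.09 (adjusted p = 0.00387) and *Mafg* in medium was -0.47 ± 0.09 (adjusted p = 0.00333).

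The EGR corepressors rose with LPS in both lines, and 1 of them was lower in KO. Of the 4 genes in this list (*Egr4*, *Wt1*, *Nab1* and *Nab2*), 3 were higher with LPS in KO and 2 in WT, with none lower. Of all tested genes, 25.3% were called higher in KO and 16.3% in WT. Between the lines 1 of the 4 was lower in KO under either condition, against 12.7% of all genes under LPS and 12.3% in medium. *Nab2*, itself a known EGR target, had 17.8 ± 3.44 CPM in KO LPS and 9.97 ± 0.371 in KO medium, against 33.2 ± 1.5 in WT LPS and 19.7 ± 0.890 in WT medium (SD, n = 3). It was lower in KO, at -0.90 ± 0.12 under LPS (1.87-fold, adjusted p = 0.000252) and -0.98 ± 0.12 in medium (1.98-fold, adjusted p = 0.000192). *Nab1* rose with LPS by 0.85 ± 0.08 in KO and 0.74 ± 0.08 in WT.

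Among the 9 upstream factors of the SRF, ELK, MRTF and CREB groups, LPS raised 4 and lowered none in KO and raised 5 and lowered 1 in WT. Of all tested genes, 52.0% were called in KO and 32.6% in WT, so the 4 of 9 in KO did not exceed that share. *Srf*, whose protein is known to bind CArG boxes, rose by 1.27 ± 0.11 in KO (adjusted p = 6.16e-06) and 0.66 ± 0.11 in WT (adjusted p = 0.000761), and was higher in KO under LPS by 0.56 ± 0.11 (adjusted p = 0.00295). *Elk1*, a MAP kinase target that acts with SRF, was lower in KO, at -0.55 ± 0.11 under LPS (adjusted p = 0.00373) and -0.65 ± 0.11 in medium (adjusted p = 0.00172). In all, 3 of the 9 were higher and 2 lower in KO under LPS, and 1 higher and 1 lower in medium. The shares of all genes called were 20.6% under LPS and 19.2% in medium.

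Of 20 genes of the MAP kinase cascades, LPS raised 7 and lowered 3 in KO and raised 7 and lowered 4 in WT, and between the lines 4 were higher and 4 lower in KO under LPS and 2 higher and 3 lower in medium. The called share in KO, 10 of 20, was close to the 52.0% of all genes called there. For the other comparisons the share of all genes was 32.6% with LPS in WT, 20.6% between the lines under LPS and 19.2% in medium. *Map2k6*, which encodes a kinase that activates p38, had 0.823 ± 0.0400 CPM in KO LPS and 1.46 ± 0.0406 in KO medium, against 5.80 ± 0.407 in WT LPS and 4.86 ± 0.679 in WT medium. It was 7.02-fold lower in KO under LPS (log2 -2.81 ± 0.16, adjusted p = 5.43e-07) and 3.33-fold lower in medium (-1.73 ± 0.16, adjusted p = 1.98e-05). *Mapk11*, the beta form of p38, was lower, at -2.16 ± 0.27 under LPS (adjusted p = 0.000173) and -1.53 ± 0.27 in medium (adjusted p = 0.00230). *Map3k5* was higher in KO, by 1.32 ± 0.15 under LPS (adjusted p = 8.65e-05) and by 0.70 ± 0.15 in medium (adjusted p = 0.00809). *Map3k8*, which carries the LPS signal to the ERK branch, rose with LPS by 1.71 ± 0.20 in KO and 1.23 ± 0.20 in WT.

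Of 20 other immediate early genes, LPS raised 13 and lowered 4 in KO and raised 11 and lowered 3 in WT (medians 1.41 and 1.07). Of all tested genes, 25.3% were higher and 26.8% lower in KO, and 16.3% in each direction in WT. *Zfp36*, which encodes the mRNA decay factor tristetraprolin, rose by 3.08 ± 0.16 in KO and 4.06 ± 0.16 in WT. *Ier3* rose by 3.04 ± 0.10 in KO and 3.43 ± 0.10 in WT, and *Csrnp1* by 3.38 ± 0.19 in KO and 3.09 ± 0.19 in WT. Between the lines 2 were higher and 6 lower in KO under LPS, and none was higher and 6 were lower in medium (medians -0.24 and -0.37). The shares of all genes were 7.87% higher and 12.7% lower under LPS, and 6.88% and 12.3% in medium. *Ier3* was lower in KO, at -1.54 ± 0.10 under LPS (adjusted p = 1.05e-06) and -1.15 ± 0.10 in medium (adjusted p = 1.29e-05), and *Zfp36* was at -1.13 ± 0.15 under LPS (adjusted p = 0.000290). *Sik1*, a kinase gene of the CREB pathway, was higher in KO under LPS by 1.11 ± 0.13 (adjusted p = 8.39e-05).

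Candidate AP-1 target genes were mostly lower in KO. The genes were picked from what is known in other systems, but earlier results of these data were already known. Their counts are therefore descriptions. The list of 20 holds proteases, their regulators and inflammatory genes; 19 were tested and *Mmp3* did not pass the filter. LPS raised 16 and lowered none in KO and raised 16 and lowered 1 in WT (medians 2.04 and 2.07). Of all tested genes, 25.3% were higher and 26.8% lower in KO, and 16.3% in each direction in WT. Under LPS 1 was higher and 13 were lower in KO, and in medium none was higher and 12 were lower (medians -0.79 and -1.11, beside 0.07 and 0.04 over all genes). The shares of all genes were 7.87% higher and 12.7% lower under LPS, and 6.88% and 12.3% in medium. Many of these genes are also targets of NF-kappaB, and binding of AP-1 was not measured.

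*Mmp9*, a gelatinase gene, had 1.22 ± 0.238 CPM in KO LPS and 0.645 ± 0.0745 in KO medium, against 10.4 ± 2.86 in WT LPS and 5.54 ± 2.38 in WT medium. It was 8.44-fold lower in KO under LPS (log2 -3.08 ± 0.31, adjusted p = 4.31e-05) and 8.55-fold lower in medium (-3.10 ± 0.32, adjusted p = 7.42e-05). *Ptgs2*, which encodes the prostaglandin enzyme COX-2, was lower, at -2.24 ± 0.16 under LPS (4.73-fold, adjusted p = 2.70e-06), and the cytokine gene *Il6* was at -1.88 ± 0.31 (3.68-fold, adjusted p = 0.00177). In medium *Il1b* was lower, at -2.25 ± 0.30 (adjusted p = 0.000259) and *Spp1*, the osteopontin gene, was at -1.83 ± 0.27 (adjusted p = 0.000825). The chemokine gene *Ccl2* had a larger LPS effect in KO, 9.57 ± 0.15 against 7.97 ± 0.14 in WT, a difference of 1.60 ± 0.21 (adjusted p = 0.00391). Its level under LPS was 1600 ± 332 CPM in KO and 1460 ± 95.6 in WT. In medium it was 2.09 ± 0.154 CPM in KO and 5.81 ± 0.663 in WT, so the lines lay apart mainly in medium.

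For each of the 10 genes, the protein-coding gene with the most similar profile was taken from 9751 candidates as the one with the smallest root mean square difference of centred log2 CPM over the 12 libraries. *Jun* was most like *Med13* (0.07), *Fosl2* like *Cyfip1* (0.08), *Jund* like *Tes* (0.16), *Fosb* like *Itsn1* (0.16) and *Egr3* like *Lix1l* (0.17). *Junb* was most like *Plaur* (0.18), the gene of the urokinase receptor and itself one of the 20 candidate AP-1 target genes. *Fos* was most like *Rgs14* (0.25), *Egr1* like *4931440F15Rik* (0.26), *Egr2* like *Gm6377* (0.37) and *Fosl1* like *Ralgds* (0.41). A small difference is easier to reach for a gene that varies little, and the log2 range over the libraries was 1.13 for *Fosb* and 4.96 for *Egr2*. The 12 libraries share their groups, so these likenesses are descriptions.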

How the data were processed

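Raw counts of reads per Ensembl gene, deposited by the authors, were used from 12 libraries of ribosome-depleted, stranded total RNA. The submitters' processing notes name FastQC 0.11.9, Trimmomatic 0.39, STAR 2.7.9a, featureCounts, DESeq2 1.32.0 and build GRCm39; strand setting, annotation release and handling of multiply mapping reads: not given in the sources used here. Symbols, classes and exon lengths came from GENCODE on GRCm38 and matched 52083 of 55416 identifiers; the rest, with 6.49% of counts, also entered the tests.

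Genes were kept with filterByExpr (count minimum 10), scaled by TMM and tested with edgeR 4.0.16 (R 4.3.3; glmQLFit, robust, 4 group means over 12 libraries), with Benjamini-Hochberg adjustment over 26420 genes. SE and 95% intervals come from the model. CPM use the scaled library totals. Alternatives were RLE scaling, library size alone, other filters, DESeq2 1.42.0, non-robust estimation, a replicate block, fewer libraries or genes, a covariate for the processed pseudogene share (its log2 value), and, chosen after seeing the data, a fit to the libraries in which that share was below 10%. Simulated counts served to test the scripts.

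The 10 genes, the 6 lists with 85 entries, the markers and the rule for named genes were chosen with earlier results of these data known. The rule takes, per list and comparison, the 3 called genes with the largest change at a mean log2 CPM of at least 1, and for each of the 10 genes the most similar protein-coding gene at a mean log2 CPM of at least 2. The labels do not say whether replicate numbers pair the libraries, and the main fit did not use them. Not all genes taken by the rule are named, and 1 of them is not reported here, although the counts of its list include it. *Batf2* and *Mmp13* fall outside the rule and were named after their values were seen.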

Additional observations from a re-analysis of the deposited data

Results flagged for a closer look

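The LPS effect differed between the lines, by the test of the difference itself (KO minus WT, log2, edgeR adjusted p under 0.05), for 1 of the 10 genes and 9 genes of the lists. The lists have 85 entries, and 1.60% of all tested genes were called in that test. *Jund* gained more in KO by 0.93 ± 0.18 (adjusted p = 0.0279). Among the listed bZIP genes, *Maff* gained more in KO by 0.99 ± 0.19 (adjusted p = 0.0279), and *Batf2*, a BATF relative, had -3.52 (adjusted p = 0.00288). Among kinase genes upstream of p38, *Map2k3* had 0.64 ± 0.12 (adjusted p = 0.0192) and *Map2k6* -1.08 ± 0.22 (adjusted p = 0.0379). Among other immediate early genes, *Sik1* had 1.07 ± 0.18 (adjusted p = 0.0144) and *Nr4a1* -1.36 ± 0.24 (adjusted p = 0.0170). Among the candidate AP-1 target genes, *Ccl2* had 1.60 ± 0.21 (adjusted p = 0.00391), the cyclin gene *Ccnd1* 0.86 ± 0.13 (adjusted p = 0.00830) and the collagenase gene *Mmp13* -3.32 (adjusted p = 0.0432).

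*Batf2* and *Mmp13* lie below the level set for named genes and were named after their values were seen. *Batf2* averaged 0.926 ± 0.256 CPM in KO LPS and 0.552 ± 0.0977 in KO medium, against 7.30 ± 1.25 in WT LPS and 0.382 ± 0.125 in WT medium (SD, n = 3). *Mmp13* averaged 0.373 ± 0.091 CPM in KO LPS and 0.0877 ± 0.042 in KO medium, against 8.61 ± 3.63 in WT LPS and 0.212 ± 0.111 in WT medium, with as few as 3 counts in a KO medium library. Both genes stood high in WT LPS alone.

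The calls differ in how they held when 1 library was left out. In the 12 such fits *Batf2*, *Sik1*, *Ccl2* and *Ccnd1* kept the call, with adjusted p up to 0.0116, 0.0441, 0.0159 and 0.0314. *Maff* lost it in 6 (values 0.88 to 1.11, adjusted p up to 0.0841), *Map2k3* in 4 (0.58 to 0.70, up to 0.0685), *Map2k6* in 9 (-1.16 to -1.01, up to 0.12) and *Mmp13* in 9 (-3.77 to -2.84, up to 0.173). *Nr4a1* lost it without KO medium replicate 3 (-1.24, adjusted p = 0.0513) and without WT LPS replicate 1 (-1.24, adjusted p = 0.0548). With no filter on low counts the *Map2k6* call was also lost (-1.11, adjusted p = 0.0683).

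*Nr4a1* averaged 17.2 ± 3.38 CPM in KO LPS and 13.7 ± 2.41 in KO medium, against 33.4 ± 4.82 in WT LPS and 10.4 ± 0.393 in WT medium (SD, n = 3). *Sik1* averaged 120 ± 18.8 CPM in KO LPS and 123 ± 3.49 in KO medium, against 55.4 ± 8.32 in WT LPS and 119 ± 9.30 in WT medium. *Map2k3* averaged 125 ± 6.75 CPM in KO LPS and 98.6 ± 5.08 in KO medium, against 69.6 ± 5.87 in WT LPS and 85.8 ± 5.13 in WT medium. *Ccnd1* averaged 58.5 ± 5.07 CPM in KO LPS and 61.8 ± 2.94 in KO medium, against 37.2 ± 1.44 in WT LPS and 71.2 ± 7.99 in WT medium. With the processed pseudogene share as a covariate, *Maff* (1.02, adjusted p = 0.0577), *Map2k6* (-1.07, adjusted p = 0.109) and *Map2k3* (0.62, adjusted p = 0.0872) missed the threshold with little change in size, as *Jund* did (0.92, adjusted p = 0.0707).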

How the results depend on the processing

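Over all alternatives, 1012 of 1095 values of the 10 genes stayed on their side of the threshold, 54 lost a call, 29 gained one and no called value changed sign. Among the 1012, 25 values that were not called changed sign, all of them for *Fosb* with LPS in WT, *Jun* under LPS and *Egr3* in medium between the lines, and the difference of LPS effects of *Fosl2* and *Egr3*. The replicate numbers were taken as a block in 1 alternative. Same-numbered libraries deviated together (r over 0.1) in 11 of 18 pairs, with r from -0.37 to 0.39. That block added 3 calls among the 10 genes. *Egr1* was called higher (1.27, adjusted p = 0.0321, so 1 higher call instead of 0) and *Jun* lower (-0.46, adjusted p = 0.00153) in KO in medium. *Egr3* was called higher with LPS in KO (0.61, adjusted p = 0.0156). The block gave 311 genes with a larger LPS effect in KO instead of 183. Counts among the 10 genes moved as follows. For LPS in KO, the stricter filter gave 4 higher and 1 lower and the pseudogene covariate 3 and 0, instead of 7 and 2. The stricter filter removed *Fosb*, *Egr1* and *Egr2* from the tests. Among the genes it kept, only *Fosl1* lost its call there (1.00, adjusted p = 0.0522). For LPS in WT, lower calls were 2 with library size alone, 2 with protein-coding genes only and 0 with the covariate, instead of 1. Between the lines in medium, higher calls were 1 with DESeq2 and 1 with protein-coding genes only. For the difference of LPS effects, higher calls were 0 with the covariate, and lower calls were 1 with DESeq2 and 1 with protein-coding genes only.

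Over all genes, LPS in KO gave 4182 higher calls with library size alone, 3856 with the stricter filter, 4083 with protein-coding genes only and 1342 with the covariate; lower calls were 3990, 4202 and 659 under the last 3. LPS in WT gave 2104 higher and 9985 lower with library size alone, and 2314 lower with the covariate. KO against WT in medium gave 558 higher and 1784 lower with the covariate, and 802 higher with only the groups compared. For the difference of LPS effects, higher calls were 360 with library size alone, 319 with the stricter filter, 442 with DESeq2 and 74 with the covariate, and lower calls were 415 with DESeq2, 396 with protein-coding genes only and 125 with the covariate. Filters and gene classes change how many genes are tested; the other causes were not tested.

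Leaving out each library in turn gave, for LPS in KO, 4748 to 6669 higher and 5823 to 8191 lower over all genes, and 5 to 7 and 2 to 2 among the 10. For LPS in WT the ranges were 2980 to 4544 and 2094 to 6337, and 6 to 7 and 0 to 2 among the 10. For KO against WT they were 1382 to 2288 and 2683 to 3609 under LPS (0 to 2 and 5 to 5 among the 10), and 907 to 6110 and 2477 to 5155 in medium (0 to 1 and 4 to 7). For the difference of LPS effects they were 69 to 1606 and 116 to 2391 (0 to 1 and 0 to 2). The highest counts in medium and of the difference came without WT medium replicate 2. *Egr1* and *Egr2* are the genes most limited by depth, with as few as 16 and 12 counts in a library.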
